A study of Mus musculus with 2 samples.

Results

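Matrix metalloproteinases and their inhibitors were followed through 9 genes, Mmp8, Mmp9, Mmp12, Mmp13, Mmp14, Mmp19, Mmp25, Timp1 and Timp2, taken as a list of family members and not by their values in these files. All 9 were found by Ensembl identifier in both deposited count matrices, among 29413 genes that the matrices share. The question was which cell type carries each gene within each library, and how its level differs between the libraries within a cell type. There was 1 distal and 1 niche library, each a droplet-based 3′ library of FACS-sorted immune cells from metastatic lung. Both came from female mice of the Balb/c strain that had received labelling 4T1 cells (a mouse mammary carcinoma line) into a vein 7 days earlier, so the distal library is from metastasis-bearing lungs too and there is no library of healthy lung. The labels give neither the age or number of the mice nor the sort gates, and the words distal and niche are those of the titles.

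Matrix metalloproteinases are zinc-dependent enzymes that cut collagens, elastin, gelatin and many cytokines, and they are made as inactive proenzymes that must be cleaved or unfolded before they act. Tissue inhibitors of metalloproteinases bind the active site of the mature enzymes, and TIMP-2 also takes part in the activation of pro-MMP-2 by MMP-14 at the cell surface. In the lung, neutrophils store MMP-8 and MMP-9 in granules, and MMP-12 is known as the macrophage elastase.

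The distal matrix held 22323465 UMIs (molecular tags that count each captured RNA once) in 3945 barcodes and the niche matrix 38036915 in 3242. After filtering, 3536 distal and 3080 niche cells remained, with a median of 5789.5 and 11192.5 UMIs, and Ptprc, the pan-leukocyte gene, had a UMI in 87.2% and 85.7% of them. Only 4 barcodes occurred in both files. Cells were clustered with the Mmp and Timp genes left out, and clusters were named "-like" from marker lists. The classes with at least 20 cells in a library were compared. Clusters with markers of more than 1 lineage (7.35% of distal and 8.86% of niche cells) and a cluster of low UMI counts (0.170% and 10.8%) were kept out of the named classes. The class called stromal and epithelial-like held endothelial, epithelial and fibroblast markers, and 13.7% and 12.1% of its cells had a Ptprc UMI. Macrophage RNA was also found outside macrophages. C1qa, a complement gene of macrophages, stood at 3.46 CPM in distal and 189 CPM in niche B cell-like cells. Levels are CPM, the UMIs of a gene scaled to 1e+06 UMIs of the summed cells of a class. CPM from a 3′ kit are not scaled by gene length, so levels are compared between classes and libraries and not between genes. With 1 library per group there was no test, and all intervals are 95% intervals for counting error only.

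Mmp13, Mmp12 and Mmp8 lie on chromosome 9 on the plus strand within a short stretch (GRCm38 7272514 to 7283331, 7344381 to 7369499 and 7558456 to 7568485), and each had a different leading class in the distal library. Their upstream sequences are shown with those of Mmp14 and Mmp25, the membrane-bound members whose niche levels stood out below. RefSeq's promoter table (GRCm38.p6) held 7 of the 9 genes. Each stretch is 120 bases long, printed 5′ to 3′ on the gene's strand, and lies wholly upstream of the first annotated start. Capitals mark letters that match, on either strand, AP-1 (TGANTCA), the TATA box (TATAAA), C/EBP (TTGCNNAA), PU.1 (GAGGAAGT) or the GC box (GGGCGG).
Mmp13, chr9:7272394-7272513, plus strand: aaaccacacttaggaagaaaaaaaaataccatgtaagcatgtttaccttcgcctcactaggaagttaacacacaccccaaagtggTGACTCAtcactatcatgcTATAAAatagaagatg
Mmp12, chr9:7344261-7344380, plus strand: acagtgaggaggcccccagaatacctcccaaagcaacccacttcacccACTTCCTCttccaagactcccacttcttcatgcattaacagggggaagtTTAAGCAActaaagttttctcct
Mmp8, chr9:7558309-7558428, plus strand: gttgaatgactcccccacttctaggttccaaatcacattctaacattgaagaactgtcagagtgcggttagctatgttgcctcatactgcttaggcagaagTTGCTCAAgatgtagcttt
Mmp14, chr14:54431478-54431597, plus strand: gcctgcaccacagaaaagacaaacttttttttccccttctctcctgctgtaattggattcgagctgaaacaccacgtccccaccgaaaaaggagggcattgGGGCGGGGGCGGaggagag
Mmp25, chr17:23645278-23645397, minus strand: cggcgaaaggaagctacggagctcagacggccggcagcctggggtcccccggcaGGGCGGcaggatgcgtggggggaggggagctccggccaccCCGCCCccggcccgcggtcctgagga
The Mmp13 stretch held an AP-1 match 35 bases and a TATA box 16 bases before the RefSeq start. Mmp12 and Mmp8 each held a C/EBP match, 39 and 19 bases before it, and Mmp12 a PU.1 match at 88 bases. Mmp8 had a PU.1 match too, at 221 bases, outside the stretch shown. Mmp14 and Mmp25 each held 2 GC boxes. Among 32851 promoters of the table, the 250 bases upstream held an AP-1 match in 6.75%, a TATA box in 12.4%, a C/EBP match in 9.56%, a PU.1 match in 2.44% and a GC box in 32.7%. These matches describe letters and not binding.

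The members divided over cell types. The class with the highest level was the same in both libraries for 6 of the 9 genes: neutrophil-like cells for Mmp8 and Mmp9, cycling monocyte/macrophage-like cells for Mmp13, monocyte/macrophage-like cells for Mmp14, migratory dendritic-like cells for Mmp25 and stromal and epithelial-like cells for Timp2. It differed for Mmp12, Mmp19 and Timp1. Some of these leading classes changed under other settings, with examples in the closing sections. The heat map of levels gives each gene in each class and library.

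**Figure D1:**
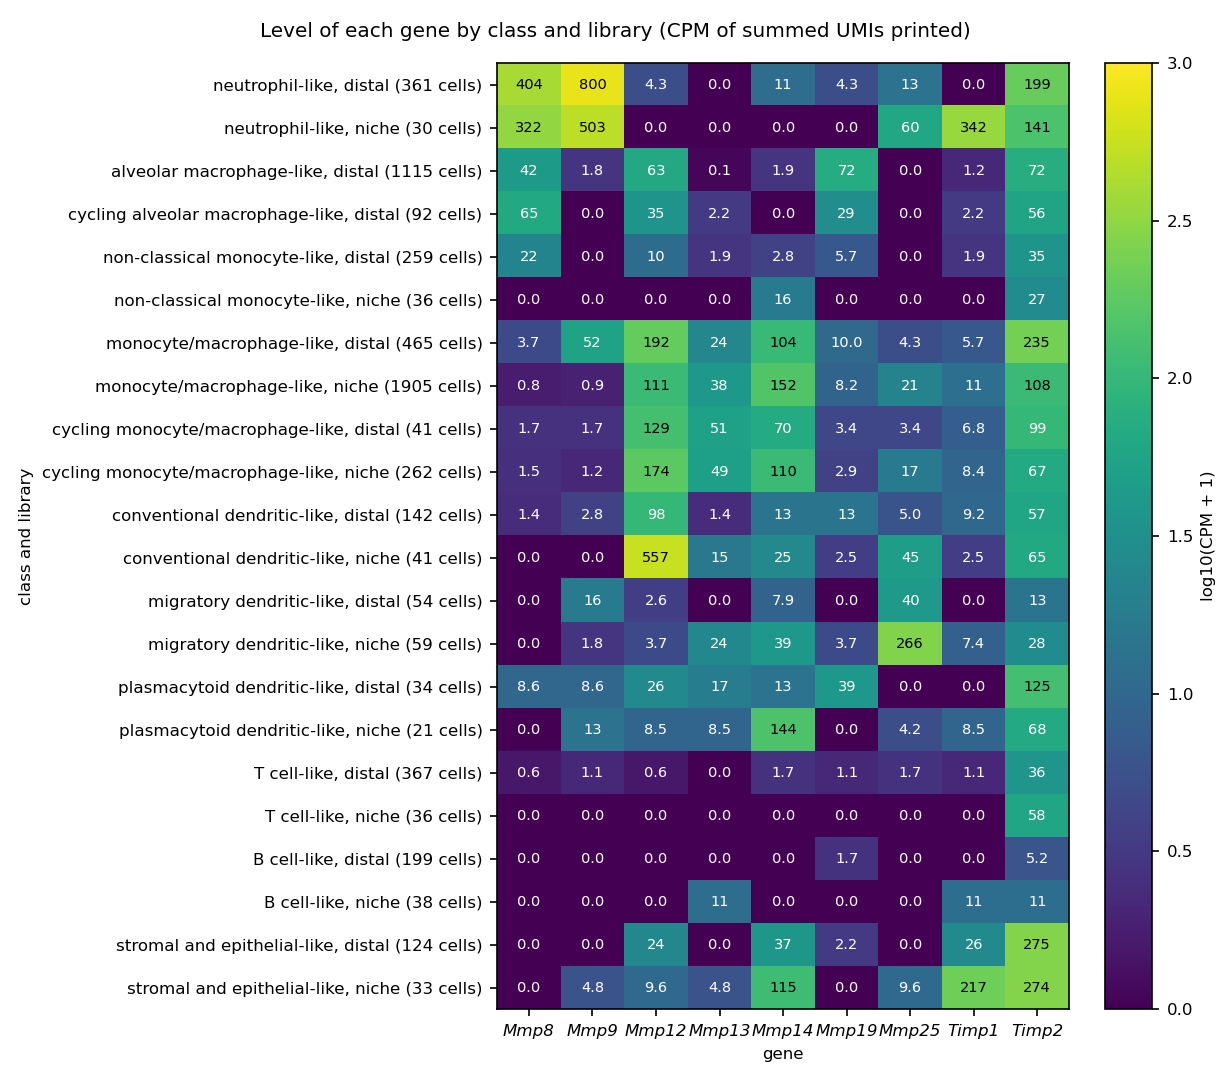
Level of the 9 genes (columns) in each class and library with at least 20 cells (rows), coloured by log10(CPM + 1) with the CPM of summed UMIs printed in each cell of the map. Mmp8 and Mmp9 were highest in the neutrophil-like rows of both libraries, Mmp25 in the migratory dendritic-like rows, and Timp2 was present in every row.

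Where a gene was highest and where most of its RNA lay were different things, since the classes differ in size. Monocyte/macrophage-like cells numbered 465 in the distal library and 1905 in the niche library, 13.2% and 61.9% of cells. They held 63.1% of the niche UMIs of Mmp12, 66.4% of Mmp13, 72.9% of Mmp14 and 78.7% of Mmp19. They also held 57.4% of Mmp25, 57.8% of Timp1 and 71.6% of Timp2. The Mmp12 and Mmp13 shares were thus near the size of the class in the niche library, and the Mmp25 and Timp1 shares were below it. In the distal library alveolar macrophage-like cells (1115 cells, 31.5% of that library, against 10 in the niche library) held 48.2% of the Mmp8 and 79.6% of the Mmp19 UMIs. Neutrophil-like cells, 10.2% of distal cells, held 55.1% of the distal Mmp9 UMIs.

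**Figure D2:**
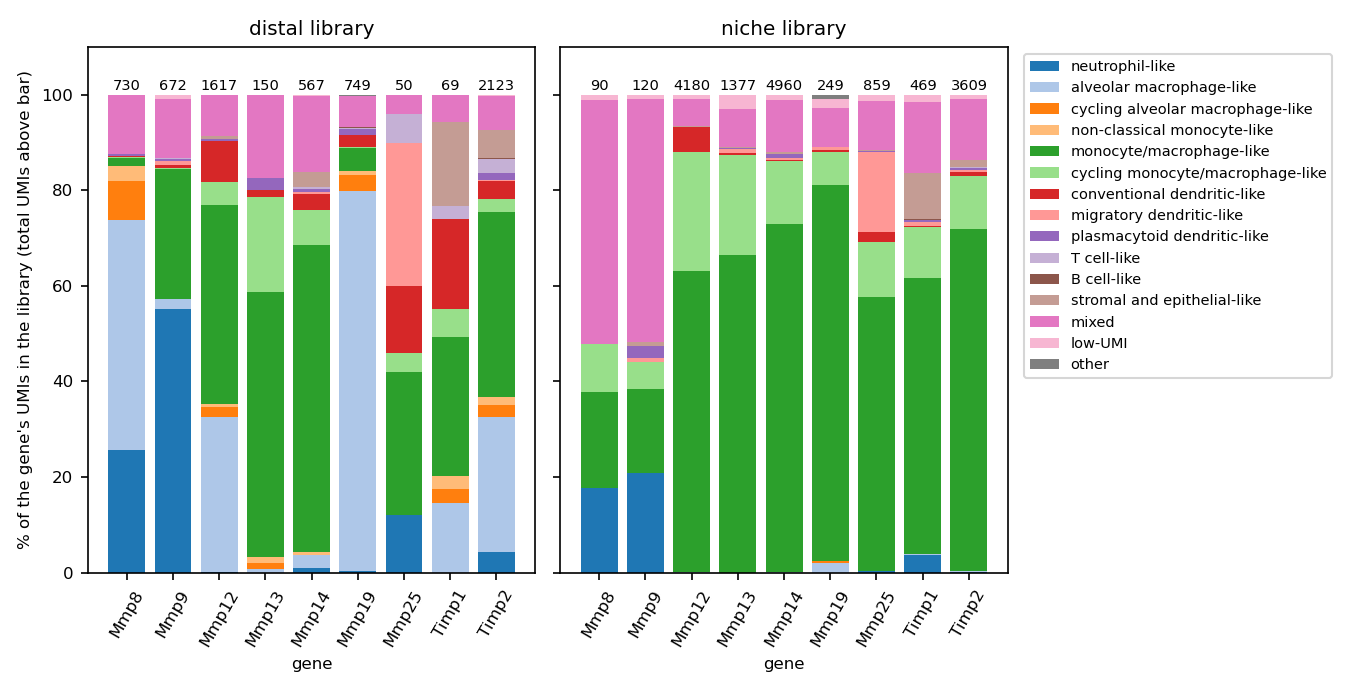
Percent of each gene's UMIs held by each class (stacked colours, vertical axis) in the distal (left) and niche (right) library, with the gene's total UMIs over each bar. The green monocyte/macrophage-like part (61.9% of niche cells) makes up most of the niche bars for Mmp12, Mmp13, Mmp14, Mmp19, Mmp25, Timp1 and Timp2. The distal Mmp8 and Mmp19 bars are led by alveolar macrophage-like cells.

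Mmp9, the gene of gelatinase B, which neutrophils release from granules, was highest in neutrophil-like cells, with 800 CPM in the distal (720.8 to 886.1) and 503 CPM in the niche library (325.7 to 742.8). A UMI was found in 215 of 361 distal and 13 of 30 niche neutrophil-like cells, at a median depth of only 1065 and 1235.5 UMIs per cell. The log2 ratio of niche over distal was -0.64 (-1.32 to -0.08), within 2-fold. Neutrophil-like cells thus had the highest level on both sides, with the niche value resting on 25 UMIs. They held 20.8% of the niche Mmp9 UMIs, against 50.8% in the mixed clusters. The niche class with the highest level changed under other settings, as given in the closing sections.

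Outside neutrophils, Mmp9 was rare per cell. In the distal library, monocyte/macrophage-like cells had 52.2 CPM, against 0.882 CPM in the niche, but 149 of the 183 distal UMIs lay in 1 cell of 13814 UMIs. That cell also held 329 UMIs of Ctsk (cathepsin K) and 339 of Acp5 (tartrate-resistant acid phosphatase), against 28 and 597 in the other 464 cells of the class together. Dcstamp and Ocstamp, which act in the fusion of osteoclasts, had 8 and 9 UMIs in it, against 2 and 72 in those others. The cell also had 1 UMI of Calcr, the calcitonin receptor, against 0. It had 0 UMIs of C1qa, Adgre1 and S100a9. Ctsk, Acp5, Mmp9 and Calcr are textbook genes of osteoclasts, and no cell type is assigned here to a single cell. Without the highest cell of each library, the class stood at 9.73 and 0.714 CPM, a log2 ratio of -3.75 (-4.70 to -2.89) in place of -5.86 (-6.61 to -5.23). Of the remaining distal UMIs, 26 came from 10 cells of cluster 9, which was led by Pf4 and Folr2. Cluster 9 stood at 34.0 CPM in the distal and 6.37 CPM in the niche library, a log2 ratio of -2.40 (-3.44 to -1.45). Neutrophil markers summed to 271 and 252 CPM in cluster 9 and to 328 and 172 CPM in the whole class, with 0 of 12 markers at 0 in the class. Their part in the result was not tested.

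Mmp8, the gene of neutrophil collagenase, was also highest in neutrophil-like cells, at 404 CPM in the distal (348.6 to 466.8) and 322 CPM in the niche library (184.1 to 523.0). UMIs were found in 91 of 361 and 11 of 30 cells. The ratio between the libraries was -0.29 on the log2 scale (-1.17 to 0.41). The interval holds 0 and also values past 2-fold lower.

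Most distal Mmp8 RNA nevertheless lay in alveolar macrophage-like cells, which clear particles and surfactant in the alveoli, where 352 UMIs in 239 of 1115 cells gave 42.4 CPM (38.1 to 47.1). Cycling alveolar macrophage-like cells had 64.7 CPM (49.3 to 83.5). Neutrophil and alveolar macrophage cells differed in the pairing of Mmp8 with Mmp9. Neutrophil-like cells held 370 Mmp9 and 187 Mmp8 UMIs, whereas alveolar macrophage-like cells held 15 and 352. As a share of the level in neutrophil-like cells, the alveolar macrophage level was 10.5% for Mmp8, 0.226% for Mmp9, 0.143% for S100a8 and 0.347% for the summed neutrophil markers. Distal non-classical monocyte-like cells also had Mmp8 without Mmp9, with 23 UMIs (21.8 CPM) and 0 UMIs. The niche library held only 10 alveolar macrophage-like cells, so no ratio was formed for them.

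Part of the RNA of both genes lay in a mixed cluster led by airway (Scgb1a1, Bpifa1) and neutrophil genes. It held 40 of the 90 niche Mmp8 UMIs and 55 of the 120 niche Mmp9 UMIs in 53 cells. Its neutrophil markers summed to 17452 CPM in the niche and 37502 CPM in the distal library, against 158028 and 211620 CPM in the neutrophil-like class.

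Mmp12, the macrophage elastase gene, was carried by several kinds of macrophage and by dendritic cells. In monocyte/macrophage-like cells it stood at 192 CPM in the distal (178.1 to 207.5) and 111 CPM in the niche library (106.6 to 115.1), a log2 ratio of -0.80 (-0.92 to -0.67), within 2-fold. The cluster of cycling cells had 129 and 174 CPM. Distal alveolar macrophage-like cells had 63.3 CPM. Among the monocyte/macrophage clusters, cluster 9 (Pf4, Folr2) was highest with 433 and 303 CPM, followed by cluster 4 (Arg1, Gpnmb) with 255 and 195 CPM, cluster 2 (C1qa, Ms4a7) with 163 and 150 CPM and cluster 11 (interferon-induced genes such as Rsad2) with 135 and 120 CPM. Cluster 1 (Ly6i, Cfb, Ly6c2) was lowest, with 15.1 CPM in each library. Of its 12 distal UMIs 10 lay in 1 cell, and without the highest cell of each library cluster 1 stood at 2.54 and 12.9 CPM, log2 2.03 (0.46 to 5.41), and cluster 11 at 45.6 and 98.4 CPM, log2 1.07 (0.37 to 1.94), both past 2-fold higher in the niche library. The order of the clusters was thus the same in both libraries. Cluster 1 supplied 105 of the 465 distal cells and 906 of the 1905 niche cells, and cluster 9 supplied 116 and 147, so values of the whole class mix the clusters in different parts.

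Few cells carried most of the Mmp12 RNA. Of 1905 niche monocyte/macrophage-like cells, 245 had a UMI, and 23 of them held 50% of the 2638 UMIs, the highest cell holding 141. In the distal library 14 of 93 positive cells held 50% of the 675 UMIs. For comparison, 0 of 199 distal B cell-like cells, at a median of 2289 UMIs, had an Mmp12 UMI. A floor of 3 cells is 1.51% of them, which is not an interval limit. The count of 0 at this depth sets no limit on cells that express the gene.

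Conventional dendritic-like cells had 98.4 CPM of Mmp12 in the distal (139 UMIs, 82.7 to 116.2) and 557 CPM in the niche library (222 UMIs, 485.9 to 635.0). The log2 ratio was 2.50 (2.19 to 2.82), and 2.80 (2.42 to 3.19) without the highest cell of each library. These UMIs lay in 21 of 142 and 15 of 41 cells. The Mmp12-positive cells had more macrophage RNA than the others of the class. C1qa stood at 1227 CPM in distal positive and 108 CPM in distal negative cells, and at 1283 and 361 CPM in the niche. Xcr1, a receptor of type 1 conventional dendritic cells, went the other way, with 5.36 against 257 CPM and 37.7 against 286 CPM. Cd209a, a marker of type 2 cells, had 375 against 122 CPM and 86.2 against 70.4 CPM. The niche level in the class exceeded that of every monocyte/macrophage cluster of that library. The part of macrophage RNA in it was not tested.

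**Figure D3:**
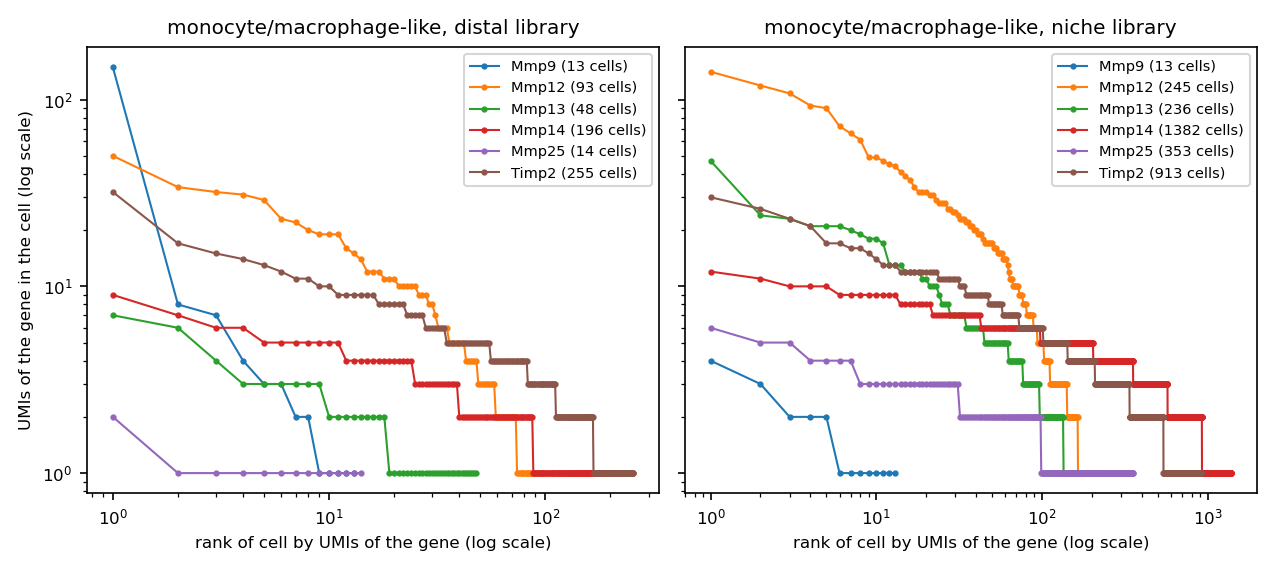
UMIs of 6 genes in each positive monocyte/macrophage-like cell (vertical log axis) against the rank of the cell by those UMIs (horizontal log axis), in the distal (left) and niche (right) library, 1 point per cell. The distal Mmp9 line begins with the single cell of 149 UMIs and drops to 8 UMIs at the next cell, Mmp12 is steep in both libraries, and the niche Mmp14 line is shallow and runs over 1382 cells.

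Mmp13, a collagenase that cleaves fibrillar collagen, was highest in macrophages. Cycling monocyte/macrophage-like cells had 51.0 CPM in the distal (34.4 to 72.8) and 48.5 CPM in the niche library (43.1 to 54.4), and the non-cycling class had 23.7 (18.8 to 29.3) and 38.4 CPM (35.9 to 40.9). With all cells the distal intervals of these classes do not overlap, and their ratios between libraries were -0.09 (-0.62 to 0.52) and 0.69 (0.37 to 1.04) on the log2 scale. Of the 30 distal UMIs of the cycling class, 11 lay in 1 cell. Without the highest cell of each, the distal levels were 33.3 CPM (19 UMIs) and 21.8 CPM (76 UMIs). Clusters 9 and 11 of the non-cycling class stood above the cycling cells in the niche library, at 111 and 116 CPM. Distal cluster 9, at 49.7 CPM, was near them. Alveolar macrophage-like cells had 0.121 CPM in 1115 distal cells, from 1 UMI.

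Within the monocyte/macrophage clusters, Mmp13 was past 2-fold higher in the niche library in 4 of 5. Cluster 1 had 1.26 against 13.5 CPM, log2 2.84 (0.92 to 8.74), and cluster 4 had 5.55 against 31.8 CPM, log2 2.30 (0.93 to 4.82). Cluster 9 had 49.7 against 111 CPM, log2 1.14 (0.67 to 1.69), and cluster 11 had 33.7 against 116 CPM, log2 1.72 (0.95 to 2.75). Cluster 2 was level, with 32.6 and 30.4 CPM and a log2 ratio of -0.12 (-0.67 to 0.52). The distal sums of clusters 1 and 4 were 1 and 3 UMIs, so their ratios are wide.

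Over the monocyte/macrophage-like class as a whole, Mmp13 was found more often in cells that also had Mmp12. In niche monocyte/macrophage-like cells, 33.9% of the 245 cells with Mmp12 had an Mmp13 UMI, against 9.22% of the others, with median depths of 14698 and 11254.5 UMIs. In the distal library the shares were 34.4% and 4.30%, with median depths of 6370 and 6825 UMIs. The distal difference was therefore seen in cells of slightly lower depth. The class mixes clusters that differ in the levels of both genes, and pairing of Mmp12 with Mmp13 within a cluster was not tested.

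Mmp14, which encodes the membrane-anchored MT1-MMP, was the most broadly detected enzyme of the list in niche macrophages. Monocyte/macrophage-like cells had 104 CPM in the distal (93.6 to 115.3) and 152 CPM in the niche library (146.8 to 156.7), log2 0.54 (0.39 to 0.70). A UMI was found in 42.2% of distal and 72.5% of niche cells. When each cell was thinned to 1000 UMIs the shares were 7.78% and 15.1%. Its RNA was spread thinly, with 357 cells holding 50% of the 3614 niche UMIs and at most 12 UMIs in a cell.

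By cluster, Mmp14 was even between the libraries in cluster 1, at 179 and 181 CPM, log2 0.02 (-0.23 to 0.28), and in cluster 4, at 142 and 127 CPM. It was higher in the niche library, within 2-fold, in cluster 2, at 93.4 and 130 CPM, log2 0.47 (0.15 to 0.82), and in cluster 11, at 126 and 189 CPM, log2 0.57 (0.13 to 1.06). Cluster 9 was past 2-fold, with 20.9 CPM in the distal and 83.2 CPM in the niche library, log2 1.95 (1.25 to 2.83). Distal alveolar macrophage-like cells had 1.93 CPM of Mmp14 and cluster 9 had the lowest distal level of the 5 clusters.

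In classes other than macrophages Mmp14 was higher in the niche library past the rule in 3. Plasmacytoid dendritic-like cells had 12.97 against 144 CPM (3 and 34 UMIs), log2 3.28 (1.81 to 5.82). Stromal and epithelial-like cells had 37.4 against 115 CPM, log2 1.61 (0.67 to 2.61), and migratory dendritic-like cells had 7.93 against 38.8 CPM, log2 2.10 (0.55 to 4.68). In the migratory class 7 of the 21 niche UMIs lay in 1 cell, and without the highest cell of each library the sum was under 20 UMIs, too few for the rule. Macrophage RNA was higher in the same niche classes. The 12 general macrophage markers summed to 1362 and 5753 CPM in plasmacytoid dendritic-like, 1614 and 3628 CPM in stromal and epithelial-like and 264 and 1855 CPM in migratory dendritic-like cells, against 12860 and 12510 CPM in the monocyte/macrophage-like class, and at most 2 of the 12 were at 0. Per 1000 of these marker UMIs, plasmacytoid dendritic-like cells had 9.52 Mmp14 UMIs in the distal and 25.1 in the niche library, stromal and epithelial-like cells 23.2 and 31.8, migratory dendritic-like cells 30 and 20.9, and monocyte/macrophage-like cells 8.09 and 12.1. On this scale the migratory class was lower in the niche library. The part of macrophage RNA in these ratios was not tested.

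Mmp25, the gene of the GPI-anchored MT6-MMP known from neutrophils as leukolysin, was led by migratory dendritic-like cells, which express Ccr7 and Fscn1. They had 39.7 CPM in the distal (15 UMIs, 22.2 to 65.4) and 266 CPM in the niche library (144 UMIs, 224.2 to 313.0), log2 2.70 (1.98 to 3.62). A UMI was found in 12 of 54 distal and 44 of 59 niche cells, at median depths of 6583.5 and 8576 UMIs. The niche level was well above that of monocyte/macrophage-like cells in the same library, 20.7 CPM. It was also above the 60.4 CPM of niche neutrophil-like cells, which rests on 3 UMIs.

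The gene was higher in the niche library in each of the 4 classes with enough UMIs. Conventional dendritic-like cells had 4.96 against 45.1 CPM, log2 3.13 (1.86 to 4.69), from 7 and 18 UMIs, and without the highest cell of each library the sum was under 20 UMIs, too few for the rule. Monocyte/macrophage-like cells had 4.28 against 20.7 CPM, log2 2.23 (1.54 to 3.12), and the cycling cells 3.40 against 16.6 CPM, log2 1.97 (0.40 to 5.36). In clusters 2, 9 and 11 the gene was past the rule as well. In clusters 1 and 4 it was not, at log2 0.86 (-0.02 to 2.08) and 1.60 (-0.03 to 4.99). Without the highest cell of each library cluster 4 was past it, at log2 2.23 (0.25 to 8.14), from 1 distal UMI. Cluster 9 had 0 distal and 35 niche UMIs, 3.78-fold higher against a floor of 3 UMIs over the cluster, with a lower interval limit of log2 1.54. Distal alveolar macrophage-like cells had 0 UMIs among 8297499, below a floor of 0.362 CPM. The matrices were counted with different software versions and gene lists, and this cannot be told apart from the group. None of the 9 members has exons that overlap, in the same direction, those of a gene found in a single matrix.

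Mmp19, a soluble metalloproteinase first known from inflamed joints, was the alveolar macrophage member. Distal alveolar macrophage-like cells had 71.8 CPM (66.2 to 77.8), with a UMI in 362 of 1115 cells, and their cycling counterparts 28.5 CPM (18.6 to 41.8). The 10 niche alveolar macrophage-like cells had 5 UMIs, 63.7 CPM (20.7 to 148.6), and were too few to enter the comparison. Monocyte/macrophage-like cells had 9.98 and 8.23 CPM, log2 -0.29 (-0.80 to 0.28). The change of leading class for Mmp19 in the niche library thus went with the lack of alveolar macrophage-like cells there. Tmem198b and Gm47093 overlap it on the opposite strand and had 100 and 5 distal and 118 and 1 niche UMIs over all barcodes.

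**Figure D4:**
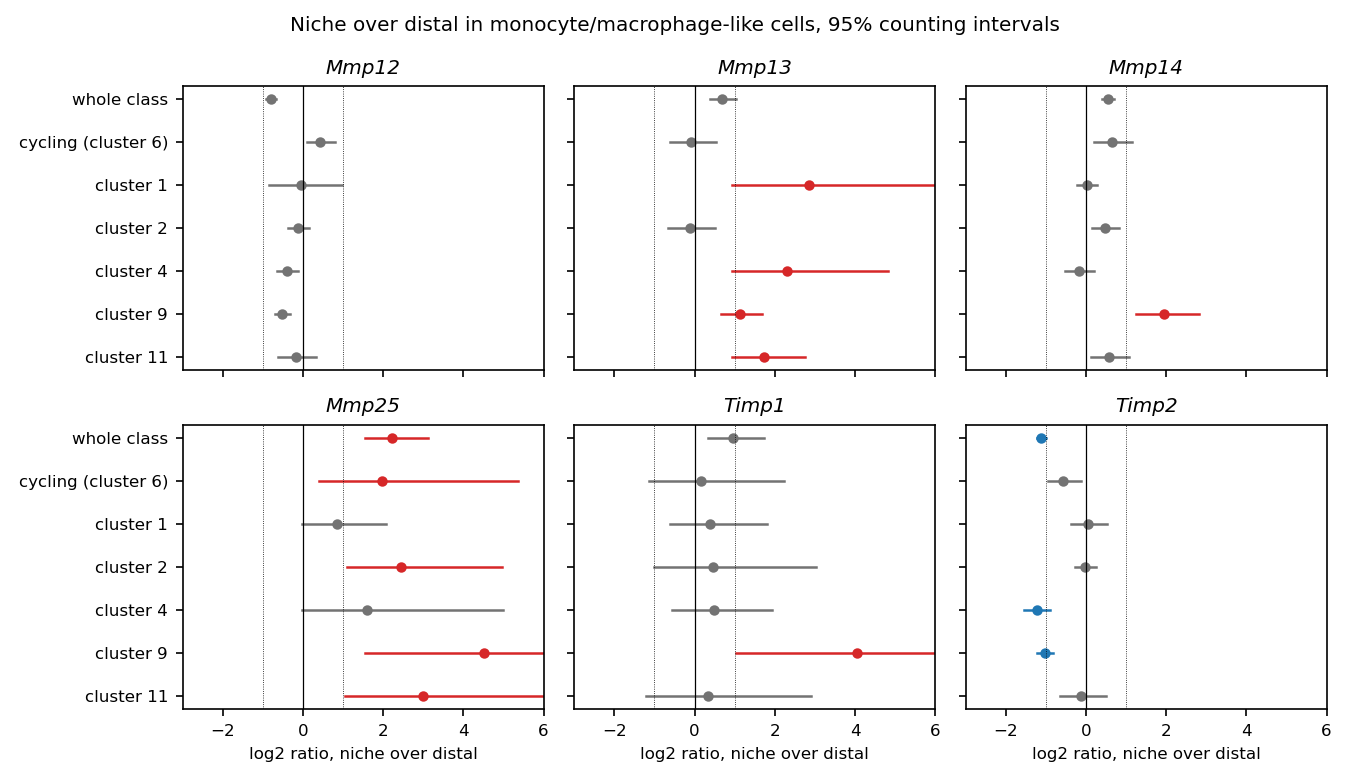
Log2 ratio of niche over distal CPM (horizontal axis) for 6 genes in the monocyte/macrophage-like class, its cycling counterpart and 5 clusters (vertical axis), with 95% counting intervals clipped at the axis limits. Red marks genes past 2-fold higher and blue past 2-fold lower under the rule. Mmp13 is red in clusters 1, 4, 9 and 11, and cluster 9 is coloured in every panel except Mmp12.

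Timp1, a secreted inhibitor that inflammatory signals induce, had few UMIs, 69 in the distal and 469 in the niche library, and its highest levels rested on single cells. Stromal and epithelial-like cells had 26.4 CPM in the distal (12 UMIs) and 217 CPM in the niche library (45 UMIs), log2 2.99 (2.09 to 4.09). Of the 45 UMIs, 39 lay in 1 cell of 12278 UMIs, which also held 23 UMIs of Col1a1, 35 of Col3a1 and 5 of Dcn, collagen and proteoglycan genes of fibroblasts. Without the highest cell of each library the class had 6 UMIs in each, 13.4 and 30.7 CPM, too few for the rule. In niche neutrophil-like cells all 17 Timp1 UMIs (342 CPM) came from 1 of 30 cells, with 14072 UMIs and 332 of S100a9, and the 361 distal neutrophil-like cells had 0. Without that cell the stromal and epithelial-like class led in both libraries.

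In monocyte/macrophage-like cells Timp1 had 5.70 CPM in the distal (20 UMIs, 3.48 to 8.80) and 11.4 CPM in the niche library (271 UMIs, 10.1 to 12.8). The log2 ratio was 0.96 (0.34 to 1.73), under 2-fold, and 1.22 (0.54 to 2.09) without the highest cell of each library, past it. Cluster 9 had 0 and 25 UMIs, 2.70-fold higher against a floor of 3 UMIs over the cluster, with a lower interval limit of log2 1.03. Of its niche UMIs 10 lay in 1 cell, and without that cell the sum was under 20 UMIs. Syn1 overlaps Timp1 on the opposite strand and had 68 distal and 14 niche UMIs over all barcodes.

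Timp2, the inhibitor that also forms the activation complex of MMP-14 with pro-MMP-2, was the most widely found member, with UMIs in every class of at least 20 cells in both libraries. Stromal and epithelial-like cells had 275 CPM in the distal (228.8 to 327.5) and 274 CPM in the niche library (207.7 to 355.3), log2 0.00 (-0.48 to 0.46). The next level in the distal library, 235 CPM in monocyte/macrophage-like cells (218.8 to 251.2), had an interval that overlapped theirs. Neutrophil-like cells had 199 CPM (160.4 to 244.0) and 141 CPM (56.7 to 290.3). B cell-like cells were lowest, with 5.19 and 11.1 CPM from 3 and 1 UMIs.

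Monocyte/macrophage-like cells had less Timp2 in the niche library, 108 CPM (104.3 to 112.7), log2 -1.11 (-1.23 to -0.998). By cluster, 2 of 5 were past the rule. Cluster 9 had 457 against 226 CPM, log2 -1.02 (-1.21 to -0.82), and cluster 4 had 205 against 88.0 CPM, log2 -1.23 (-1.54 to -0.89). The other 3 had near values in both libraries, at 168 and 166 CPM in cluster 2, 56.6 and 58.7 CPM in cluster 1 and 89.9 and 83.4 CPM in cluster 11. Cluster 1, the lowest of the 5, supplied 105 of 465 cells in the distal library and 906 of 1905 in the niche library, so the ratio of the whole class also holds the different makeup of the class in each library. Cluster 23 (Saa3, Prg4), with 14 distal and 6 niche cells, had 835 CPM in the distal library (700.9 to 986.9) and 373 CPM in the niche (243.7 to 546.6). Mmp14 and Timp2, which act together at the membrane, were not found more often together in niche cells of the class taken as a whole. Timp2 was found in 47.7% of cells with Mmp14 and 48.6% of cells without, at median depths of 12293.5 and 9483 UMIs. The class mixes clusters that differ in both genes, and pairing within a cluster was not tested. Cluster 9 thus had the highest Timp2 of the 5 large clusters in both libraries and the lowest Mmp14.

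A gene was counted as past the rule when it had at least 20 UMIs in the class over both libraries, a ratio of at least 2-fold and an interval that leaves out 0. In monocyte/macrophage-like cells all 9 members had enough UMIs. Of these, 1 was higher in the niche library (Mmp25) and 3 were lower (Mmp8, Mmp9 and Timp2), where 2% of 11227 genes were higher and 4.88% lower. The median log2 ratio of the members was -0.29, against -0.03 over all genes tested. Mmp8 was at 3.71 and 0.756 CPM, with 8 of its 13 distal UMIs in 1 cell, and was not past the rule without the highest cells.

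Across the clusters of that class, cluster 9 had the most members past the rule, with 4 higher and 2 lower of 7 tested, where 4.52% of genes were higher and 4.19% lower. Cluster 11 had 2 higher of 7 (2.52% of genes, 2.19% lower), and cluster 4 had 1 higher and 2 lower of 8 (2.70% and 3.42%). Clusters 1 and 2 had 1 higher each of 7, against 1.98% and 3.3% of genes, and 0 lower, against 1.71% and 2.88%. The Mmp9 call of cluster 4 was its single cell, since the other 80 distal and all 278 niche cells had 0 UMIs.

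In the other classes fewer members had 20 UMIs. Conventional dendritic-like cells had 2 higher of 5 tested (Mmp12 and Mmp25), against 3.18% of genes higher and 4.46% lower, and migratory dendritic-like cells 2 higher of 3 (Mmp14 and Mmp25), against 4.31% and 2.72%. Without the highest cells only Mmp12 in the former and Mmp25 in the latter had enough UMIs and were past the rule. Stromal and epithelial-like cells had 2 higher of 3 (6.37% of genes higher, 4.6% lower), and plasmacytoid dendritic-like cells 1 higher of 2 (5.36% and 5.65%). The cycling monocyte/macrophage-like class had 1 higher of 6 (2.67% and 3.21%). Non-classical monocyte-like cells had 1 lower of 2, where 2.58% of genes were higher and 2.89% lower. This was Mmp8, with 23 distal and 0 niche UMIs, 1.34-fold lower against a floor of 3 UMIs over the class. Its upper interval limit was log2 -0.009, and it was not past the rule without the highest distal cell. Neutrophil-like cells had 0 of 3 past the rule (7.55% and 1.65%), T cell-like cells 0 of 1 (3.07% and 5.16%), and B cell-like cells had no member with 20 UMIs (1.86% and 2.85%).

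The other genes of the family had few UMIs in monocyte/macrophage-like cells. Of 17 further Mmp and Timp genes in both lists, 2 had 20 UMIs in monocyte/macrophage-like cells and 0 were past the rule. Timp3, an inhibitor bound to the matrix, had 121 distal and 72 niche UMIs and was highest in stromal and epithelial-like cells at 227 and 144 CPM, and Mmp2, the partner of Timp2, had 29 and 35 UMIs with its highest level in that class too.

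Lists of related genes were counted in monocyte/macrophage-like cells by the same rule. Of 7 tested genes for activation and surface control of these enzymes, 1 was lower in the niche library. This was Lcn2, which stabilises MMP-9, at 3.99 and 1.01 CPM, with 21.4% of its 14 distal UMIs in 1 cell. In the plasminogen system Serpinb2, which inhibits urokinase, was lower (18.0 and 0.378 CPM, with 31.7% of its distal UMIs in 1 cell). All 3 tested genes of neutrophil serine proteases and inhibitors were lower, led by Slpi, an elastase inhibitor (259 and 21.4 CPM, with 38.4% of its distal UMIs in 1 cell), and Prtn3, proteinase 3 (13.4 and 1.18 CPM). Markers of other cells were lower in the niche library in this class too, the neutrophil markers at 328 and 172 CPM and the alveolar macrophage markers at 303 and 74.3 CPM, and Slpi was among the leading genes of the main alveolar macrophage-like cluster. Their part in these ratios was not tested. Of 14 cathepsins and cystatins, Cst7, cystatin F, was higher (10.5 and 26.2 CPM) and Ctsk was lower (102 and 1.68 CPM, with 92.2% of its distal UMIs in the cell with the Mmp9 RNA). Of 14 matrix substrates and partners, Fn1, fibronectin, was lower (162 and 44.7 CPM). Of 14 inducers and regulators 2 were lower, Jun, a part of AP-1 (417 and 168 CPM), and Il6 (8.55 and 1.26 CPM). Of the distal Il6 UMIs, 30% lay in 1 cell. None of 7 ADAM and ADAMTS genes was past the rule. The share of all genes past it was the one given above for this class.

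The genes whose profile was most like that of each member were sought over 22 points, each a class in 1 library, among 6434 genes. The points share libraries and cells of related types, so the correlations are descriptions. Mmp9 was nearest to Padi4 (r = 0.96), Cstdc5 and Il1f9 (0.94 each), and Mmp8 to Trem1 (0.95), Sgms2 (0.92) and Alox5 (0.91). Mmp14 was nearest to Ms4a7 (0.93), Il18bp (0.91) and C1qa (0.89), and Mmp13 to C1qa (0.81), C1qc and Hpgds (0.79 each). Mmp12 was nearest to Tbxas1 (0.85), Klrb1b and Rab7b (0.81 each), where exons of Klrb1b overlap those of a gene found in a single matrix. Mmp19 was nearest to Slc6a4, Slc39a2 (0.90 each) and Slc9a4 (0.88), and Mmp25 to AA467197 (0.84), Rnf19b and Il12b (0.80 each). Timp1 was nearest to Sfrp1 (0.88), Fbln2 and Pdpn (0.86 each), where the highest Timp1 points, niche neutrophil-like and niche stromal and epithelial-like cells, rest on the single cells named above, and Timp2 to Ier3 (0.87), Rnase4 (0.79) and Lgals9 (0.78). Among the members themselves the closest profiles were those of Mmp8 and Mmp9 (0.79), followed by Mmp13 and Mmp14 (0.69) and by Mmp12 and Mmp13 (0.61).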

How the data were processed

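Single-cell RNA was measured in 1 distal and 1 niche library. The authors deposited raw UMI counts, as whole numbers for each gene in each barcode. The headers name software 3.0.2 (distal) and cellranger-6.0.0 (niche), and Cell Ranger 3.02, Bowtie2, RSEM and Seurat 4.1.1 are named, per the submitters' processing notes, with builds mm10 and GRCm38. Genes were joined by Ensembl identifier. Barcodes under 200 genes or over 10% mitochondrial UMIs were dropped. Scrublet called 5 doublets (0.0755% of cells), which counts as not having worked, and these were removed. Clustering used scanpy 1.11.5 and leidenalg 0.10.2 (2000 variable genes, 30 components, 20 neighbours, resolution 1.0, no alignment). A cluster was named from at least 0.75 of a marker list, a marker counting when it reached 0.15 of the highest cluster's level and a share of 0.1 of cells, thresholds set after the clusters were seen. Summed UMIs gave CPM with exact Poisson intervals. Log2 ratios had 0.5 UMI added and exact conditional binomial intervals. The ratio step was tested on simulated data. All 9 members were named, with the 3 genes of highest Pearson correlation of log2(CPM + 10) to each, and at most 2 genes past the rule in each direction per list. Members, lists and the rule were chosen with earlier results of these data known. Coordinates and overlaps came from the GENCODE annotation of GRCm38. One result of the related gene lists is not reported here.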

Additional observations from a re-analysis of the deposited data

How the results depend on the processing

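No paired analysis was possible because each group is 1 library. The count of 6 members with the same leading class in both libraries stayed between 5 and 7 except under 2 settings. It was 3 when the libraries were clustered separately and 2 when classes needed at least 50 cells. With that minimum the niche neutrophil-like, niche stromal and epithelial-like and distal cycling monocyte/macrophage-like classes drop out. An unchanged count could hide a change of class. At resolution 0.5 neutrophil-like cells led Mmp25 in both libraries. Under a stricter cell filter (500 genes, 5% mitochondrial) monocyte/macrophage-like cells led Timp2 in both. Migratory dendritic-like cells led niche Mmp9 under that filter and with the 50-cell minimum, and plasmacytoid dendritic-like cells did with separate clustering. Plasmacytoid dendritic-like cells also led niche Mmp14 when CPM was averaged over cells. In monocyte/macrophage-like cells the count higher in the niche library went from 1 to 2 at resolution 2.0, with separate clustering and without the highest cell of each member and class, an alternative chosen after the data were seen. Over all classes, the 9 calls higher in the niche library became 5 at resolution 0.5, 3 with classes of at least 50 cells and 4 with a minimum of 100 UMIs, and the 4 lower calls became 2 at resolution 2.0, with separate clustering and with a minimum of 100 UMIs. Beyond the construction of the minimums, the cause was not tested. No single-gene ratio that was past the rule changed direction. In monocyte/macrophage-like cells Timp2 was just under 2-fold at resolution 2.0 (-0.95) and with separate clustering (-0.96), and Mmp13 was past 2-fold at resolution 2.0 (1.27). Depth limits the smaller niche classes. In 30 neutrophil-like cells a floor of 3 cells is 10% of cells, and a count of 0 sets no limit on cells that express a gene.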

Other observations

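Cells kept out of the named classes also carried members. The niche cluster of low UMI counts, 332 cells with a median of 973 UMIs, had 57.2 CPM of Mmp13 (41 UMIs), 78.2 CPM of Mmp14 and 54.4 CPM of Mmp12, and its 12 general macrophage markers summed to 8870 CPM. A mixed cluster led by T cell genes such as Trbc2 and Lef1, which also held general macrophage markers, had 195 CPM of Mmp12 in the distal (41 cells) and 40.8 CPM in the niche library (150 cells). A distal mixed cluster of T cell and alveolar macrophage markers (45 cells) had 77.6 CPM of Mmp19 and 46.1 CPM of Mmp8, next to 71.8 and 42.4 CPM in alveolar macrophage-like cells.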
